A study of Homo sapiens with 28 samples.

Results

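The genes described here are those whose RNA level with IL-13 and vitamin D together departed from what the separate effects predict. For each gene, the IL-13 effect in the presence of vitamin D, log2(both/vitamin D), was set against the IL-13 effect without it, log2(IL-13/untreated), and their difference is called the departure. It was computed from the deposited RPKM values, reads scaled to gene length and library size, with 0.1 added to each, for the 11544 of 23533 genes that reached at least 1 RPKM in any group. A departure of 0 means that the 2 fold changes multiply, which is additivity on the log2 scale. A positive departure means more RNA with both agents than this product, and a negative one means less.

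The cells were EPC2, an immortalised line of human esophageal epithelial cells, plated at high density a day before treatment. There were 4 groups, each of 3 RNA samples: cells left untreated, cells given IL-13 at 100 ng/ml, cells given vitamin D at 100 nM, and cells given both agents at these doses, all for 6 h. All groups are thus 1 line at 1 dose and 1 time, and the labels give neither the form of vitamin D nor whether the samples of a group were separate cultures. For RNA, the deposited tables used here give a single RPKM value for each group, beside fold changes and p-values made by the authors. A spread between samples therefore cannot be shown, an exact test over samples cannot be made, and read depth is unknown. Summed RPKM lay between 377254, with both agents, and 391648, with vitamin D. All 7 squamous epithelial markers checked (KRT5, KRT14, KRT6A, TP63, KRT13, CDH1 and DSG3) were above 1 RPKM, and their summed RPKM lay between 31382 and 36231. Of the markers of other cell types, 4 of 12 for fibroblasts, 2 of 14 for leukocytes and 1 of 8 for endothelium reached 1 RPKM in any group. Their summed RPKM over the groups was 133 to 148 for fibroblasts, 51.8 to 272 for leukocytes, where the vitamin D target CD14 is counted, and 0.662 to 4.01 for endothelium. PTPRC, CD3E, PECAM1, CDH5, COL1A2 and COL3A1 were below 0.1 RPKM in all 4 groups.

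IL-13 is a type 2 cytokine of allergic inflammation. It binds a receptor of the IL4R and IL13RA1 chains, whose JAK kinases phosphorylate the transcription factor STAT6. In eosinophilic esophagitis it is known to raise genes such as CCL26 and CAPN14 in the epithelium and to lower genes of its barrier. Vitamin D in its active form binds VDR, a nuclear receptor that pairs with a retinoid X receptor on DNA and raises genes such as CYP24A1, the enzyme that breaks vitamin D down. Both factors recognise short DNA motifs, for STAT6 an inverted repeat of TTC and GAA and for VDR a direct repeat of 2 half-sites. The study's design, in which each agent was given alone and together, allows the question whether the effect of one depends on the other.

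Stretches upstream of 2 genes with positive departures and the site at the start of another are shown because they hold such motifs. The sequences are RefSeq's, in build GRCh38.p14, printed 5′ to 3′ on the strand of the gene with motif matches in capitals. CEACAM6 (chr19:41755280-41755529, plus strand) and AKR1C1 (chr10:4963165-4963414, plus strand) are given as the 250 bases before the start, and HBEGF (chr5:140346583-140346612, minus strand) as 30 bases around its match.
CEACAM6: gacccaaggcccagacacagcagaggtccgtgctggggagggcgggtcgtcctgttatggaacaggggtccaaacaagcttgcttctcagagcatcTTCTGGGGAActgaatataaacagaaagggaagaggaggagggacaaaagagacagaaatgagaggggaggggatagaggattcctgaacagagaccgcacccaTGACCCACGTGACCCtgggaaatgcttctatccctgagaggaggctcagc
AKR1C1: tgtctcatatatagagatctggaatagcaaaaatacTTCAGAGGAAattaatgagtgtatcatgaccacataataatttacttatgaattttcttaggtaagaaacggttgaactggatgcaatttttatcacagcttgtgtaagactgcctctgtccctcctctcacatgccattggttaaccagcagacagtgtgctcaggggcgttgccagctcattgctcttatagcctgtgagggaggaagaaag
HBEGF: gcagcgctcaTTCGGCCGAAggagctacgc
In CEACAM6 the first run of capitals is a match to TTCNNNNGAA, and the second is a match to a direct repeat of VDR half-sites with a gap of 3 bases, on the opposite strand. AKR1C1 and HBEGF have 1 match to TTCNNNNGAA each. A match describes the letters only and does not show that a factor was bound there. In the ChIP-seq described below, the nearest STAT6 peak summit lay 527.5 kb from the start of CEACAM6, 79.7 kb from that of AKR1C1 and 52.2 kb from that of HBEGF. The nearest VDR summit to the start of CEACAM6 lay at 19.3 kb, outside the printed stretch.

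Most genes followed the product. The median departure of the 11544 genes was 0.02 on the log2 scale, with quartiles of -0.06 and 0.10. A departure of at least 1 was found for 20 genes, of which the z test described below called 11. One of -1 or less was found for 15 genes, of which it called 4. Near the limit of 1 RPKM, GYG2P1 just entered with a highest value of 1.00004 RPKM and a departure of -0.013, and MEGF6 stayed just outside with 0.999 RPKM and 0.0081. A z test of each departure used the authors' deposited fold changes, with standard errors derived from their p-values and Benjamini-Hochberg adjustment over all 14752 genes that could be tested. It called 339 genes of 11506 members tested, 2.95%, at an adjusted p below 0.05. Of these, 138 genes were lower than the product, 1.2% of those tested, and the rest were higher, 1.75%. Most called departures were small: 244 of the 339 were under 0.5, and the median was 0.39 for the genes that were higher and -0.33 for those that were lower. The derived errors are a limit of this test. Where they were made 1.5 times larger, 54 genes stayed called, and a test through the 3 tables against untreated called 187. That test summed 3 variances that all contain the untreated samples, so its errors were too large and it was stricter by construction. A call lost or missing through the 3 tables carries that limit. Of the 24 genes with the largest departures named below, 15 stayed called with the larger errors and 19 through the 3 tables.

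**Figure D1:**
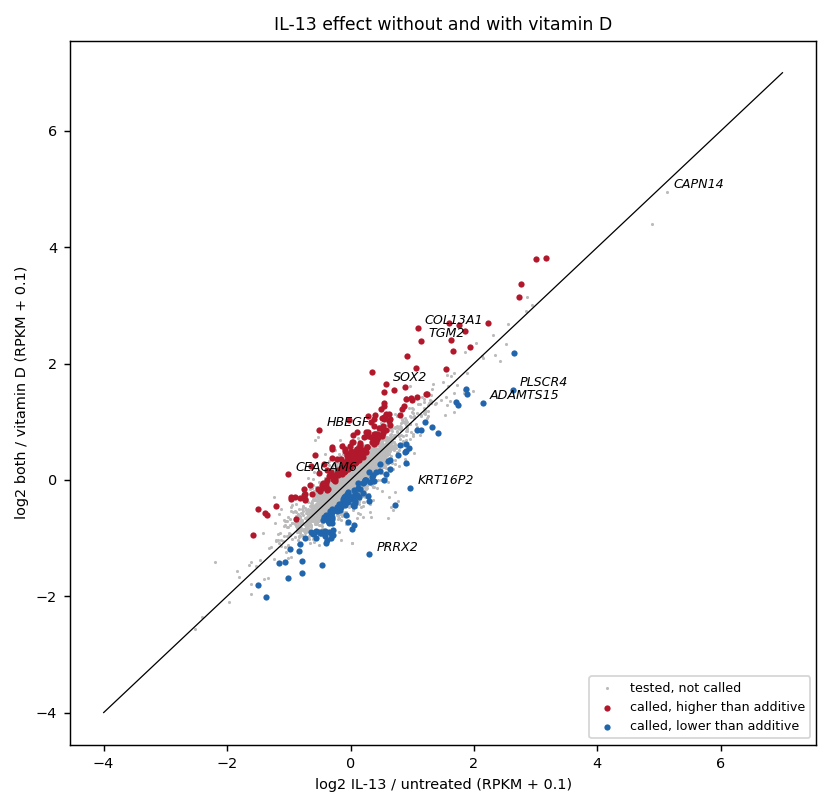
Each point is 1 tested gene, placed by its log2 ratio of IL-13 to untreated (x axis) and of both agents to vitamin D (y axis), from RPKM with 0.1 added. The line marks equal effects. The red genes, called higher, lie above it and the 138 blue genes, called lower, below it, and CAPN14, the gene with the largest IL-13 effect among those labelled, lies near it.

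In 121 of the genes that were higher than the product, 60.2%, the combination gave more RNA than any of the other 3 groups. Over all tested genes this share was 22.8%. In 51 of the 138 genes that were lower, 37.0%, the combination gave less RNA than any other group, against 21.6% of all tested genes. An effect is called strengthened if it kept its sign and grew in absolute log2 size with the other agent present, and weakened if it shrank. It is called turned if its sign changed. No minimum size was set, and rises and falls are counted alike. Vitamin D strengthened the IL-13 effect in 59.2% of the genes called higher, weakened it in 13.4% and turned it in 27.4%, against 49.9%, 29.97% and 20.1% of all tested genes. Among the genes called lower these shares were 57.2%, 22.5% and 20.3%. IL-13 strengthened the vitamin D effect in 34.8% of the genes called higher, weakened it in 28.9% and turned it in 36.3%. Among the genes called lower these shares were 26.1%, 48.6% and 25.4%, near those of all tested genes, 33.3%, 43.0% and 23.6%. These positions share RPKM values with the departure itself and are a description of its shape.

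A first group of genes rose with both agents far beyond what each did alone. COL13A1 (chr10:71561644-71718904, hg19), a transmembrane collagen of cell adhesion sites, was at 0.108 RPKM untreated, 0.344 RPKM with IL-13, 1.03 RPKM with vitamin D and 6.79 RPKM with both. The product of the single effects would be 2.29 RPKM, so the combination reached 2.88 times that level, a departure of 1.52 (z test on the authors' fold changes, adjusted p = 3.96e-11, derived SE 0.22). HBEGF (chr5:139712428-139726188, hg19), a growth factor that activates the EGF receptor, fell to 5.64 RPKM with IL-13 alone from 8.05 RPKM untreated, and was at 12.01 RPKM with vitamin D. With both agents it was at 21.9 RPKM against a product of 8.44 RPKM, the highest of the 4 values, and IL-13 thus went with less HBEGF RNA without vitamin D and with more in its presence. Its departure was 1.37 with a derived SE of 0.09 (z test on the authors' fold changes, adjusted p = 1.39e-45).

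TMEM97 (chr17:26646121-26655711, hg19), the sigma-2 receptor that takes part in cholesterol traffic, hardly differed between untreated (5.77 RPKM), IL-13 (5.67 RPKM) and vitamin D (5.17 RPKM) and was at 10.6 RPKM with both. Its departure was 1.05 (z test on the authors' fold changes, adjusted p = 1.21e-20). TSPAN15, a tetraspanin that guides the protease ADAM10, was at 8.40 RPKM untreated, 12.3 RPKM with IL-13, 8.04 RPKM with vitamin D and 23.1 RPKM with both, a departure of 0.96 (z test on the authors' fold changes, adjusted p = 1.18e-18). In both genes vitamin D alone did not raise the RNA, and the level with both stood above all 3 other groups. DPF3, a reader of acetylated histones in BAF chromatin remodelling complexes, was also highest with both, at a low level, with 0.122 RPKM untreated, 0.183 RPKM with IL-13, 0.249 RPKM with vitamin D and 1.16 RPKM with both (departure 1.502). TNFRSF11A, the receptor of RANK ligand, reached 1.17 RPKM with both from 0.593 RPKM untreated (departure 1.00), and this call was lost with the larger errors and through the 3 tables. At these low levels the size depends on the amount added before the logarithm: with 1 RPKM added the departures were 0.47 for PTCHD4, 0.47 for MEOX1, 0.46 for TNFRSF11A and 0.71 for DPF3.

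Some genes moved little under each agent and more under both. Of the 4 genes whose single effects stayed within 0.5 on the log2 scale while both agents raised them by at least 1, FAM117B and SIX4 were called. FAM117B was at 1.03 RPKM untreated, 1.11 RPKM with IL-13, 1.35 RPKM with vitamin D and 2.48 RPKM with both. SIX4, a homeobox factor, was at 1.20, 1.604, 1.36 and 2.67 RPKM in the same order of groups. In the opposite direction there were 7 such genes and 3 calls, AHNAK2, BMF and RASA4. AHNAK2 was at 71.2 RPKM untreated, 56.5 RPKM with IL-13, 52.4 RPKM with vitamin D and 35.4 RPKM with both, a departure of -0.23. BMF, a BH3-only protein that promotes apoptosis, was at 3.14 RPKM untreated and 1.24 RPKM with both. The calls of all 5 genes were lost with the larger errors and held through the 3 tables.

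Several genes with a high departure fell under vitamin D and fell less, or not at all, from the IL-13 level when both were given. TGM2 (chr20:36766351-36793700, hg19), a transglutaminase that crosslinks proteins, was at 6.56 RPKM untreated, 14.6 RPKM with IL-13, 2.77 RPKM with vitamin D and 15.0 RPKM with both. The levels with IL-13 and with both were nearly equal although vitamin D alone took the RNA below the untreated level, and the product would be 6.25 RPKM. The departure was 1.25 (z test on the authors' fold changes, adjusted p = 4.02e-46). SOX2 (chr3:181429712-181432223, hg19), a transcription factor of basal esophageal epithelium, was at 10.5 RPKM untreated, 15.6 RPKM with IL-13, 2.22 RPKM with vitamin D and 7.15 RPKM with both (departure 1.07). On the linear scale the SOX2 departure was -0.188 RPKM, close to simple addition, so its sign depends on the scale. THBS1, a matrix glycoprotein, followed TGM2 at a higher level, with 66.8 RPKM untreated, 123 RPKM with IL-13, 38.4 RPKM with vitamin D and 115.8 RPKM with both. Its departure was 0.71 with a derived SE of 0.05 (z test on the authors' fold changes, adjusted p = 2.89e-33). PTCHD4 was at 0.484, 0.996, 0.208 and 1.25 RPKM in the same order (departure 1.22). The homeobox gene MEOX1 was at 0.178, 0.736, 0.112 and 1.27 RPKM (departure 1.11), a call lost with the larger errors. Its change under vitamin D alone, -0.39 on the log2 scale, was between levels near the 0.1 RPKM added.

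The reverse, a fall under IL-13 that vitamin D lessened or removed, was found, among others, at CEACAM6 and at 3 aldo-keto reductases. CEACAM6 (chr19:42259398-42276113, hg19), a cell surface adhesion protein, was at 7.95 RPKM untreated, 3.91 RPKM with IL-13, 16.3 RPKM with vitamin D and 17.5 RPKM with both. The IL-13 effect was -1.01 on the log2 scale without vitamin D and 0.10 with it, a departure of 1.10 (z test on the authors' fold changes, adjusted p = 1.1e-27). Its neighbour CEACAM5 (departure 1.01, or 0.20 with 1 RPKM added) never exceeded 0.249 RPKM and was not a member. AKR1C1, an enzyme that inactivates progesterone, was at 14.1 RPKM untreated, 9.03 RPKM with IL-13, 26.8 RPKM with vitamin D and 31.7 RPKM with both (departure 0.88). AKR1C3 was at 7.33, 3.11, 6.81 and 4.98 RPKM in the same order, and AKR1C2 at 6.50, 4.10, 6.24 and 5.86 RPKM. Vitamin D alone thus raised neither of them. AKR1C3 and AKR1C2 had departures of 0.77 and 0.56 and were also called, but unlike that of AKR1C1 their calls were lost with the larger errors. The 3 reductases are close paralogs whose reads may be shared, and AKR1C2, AKR1C3 and CEACAM5 were chosen after their values were seen. The 24 genes with the largest departures also hold RDH16, a retinol dehydrogenase that fell from 2.999 RPKM to 0.991 RPKM with IL-13 and 0.996 RPKM with vitamin D, but only to 0.675 RPKM with both (departure 1.01), a call lost with the larger errors and through the 3 tables.

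**Figure D2:**
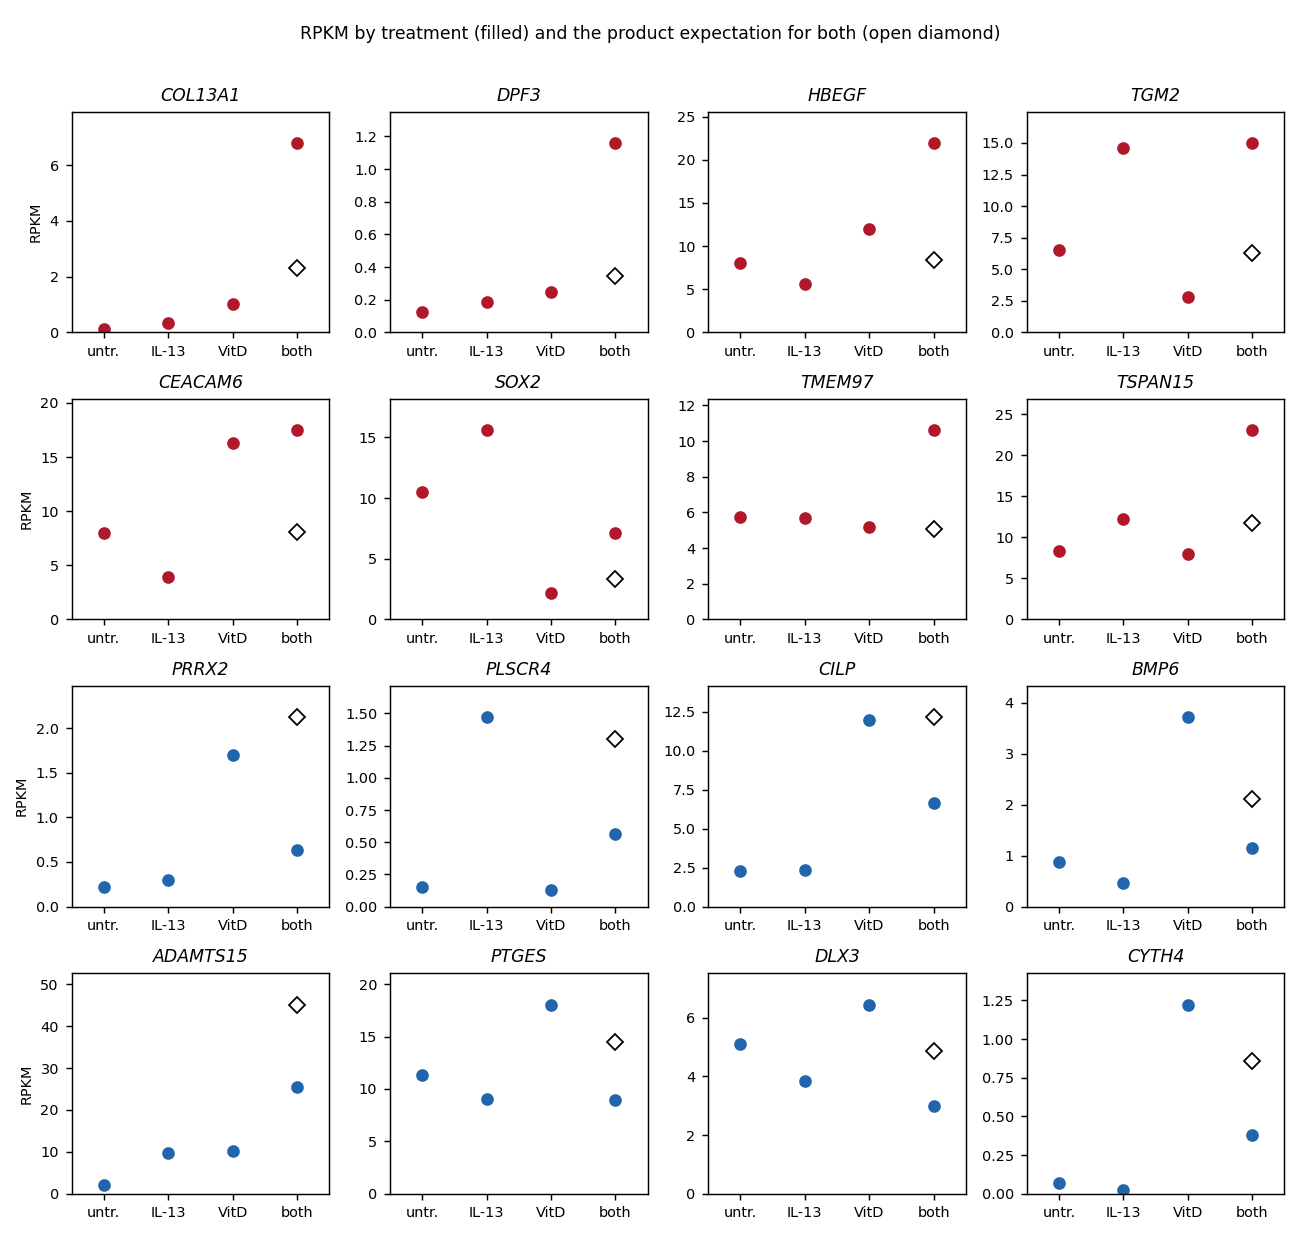
RPKM (y axis, linear, each panel with its own scale from 0) of 16 genes in the 4 groups; filled points are the authors' single value per group, and the open diamond is the level with both agents if the 2 fold changes multiplied. In the 8 red panels the combination lies above the diamond, at COL13A1 6.79 against 2.29 RPKM, and in the 8 blue panels it lies under the diamond, at CILP 6.63 against 12.1 RPKM.

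Of the 12 genes named for the most negative departures, 9 were raised by vitamin D by at least 1 on the log2 scale. A smaller rise with IL-13 present then follows from the choice of negative departures. A rise or fall under a single agent is written here of changes with an adjusted p below 0.05 in the authors' deposited tables. CILP (chr15:65488337-65503840, hg19), a secreted matrix protein known from cartilage, was at 2.31 RPKM untreated, 2.35 RPKM with IL-13, 11.97 RPKM with vitamin D and 6.63 RPKM with both. IL-13 alone gave nearly the untreated level, and the level with both was lower than with vitamin D alone, a departure of -0.86 (z test on the authors' fold changes, adjusted p = 2.36e-19). BMP6, a ligand of the bone morphogenetic protein family, was at 0.884 RPKM untreated, 0.473 RPKM with IL-13, 3.71 RPKM with vitamin D and 1.15 RPKM with both (departure -0.82). PRRX2, a homeobox factor, showed the most negative departure among the called genes, -1.59, at 0.218, 0.293, 1.69 and 0.639 RPKM in the same order. CYTH4, an exchange factor for ARF GTPases, was at 1.22 RPKM with vitamin D and 0.382 RPKM with both (departure -0.99). CREG2 was at 2.05 RPKM with vitamin D and 1.15 RPKM with both (departure -0.83). The calls of BMP6, PRRX2, CYTH4 and CREG2 were lost with the larger errors, and those of CYTH4 and CREG2 also through the 3 tables. With 1 RPKM added before the logarithm the departures were -0.80 for PRRX2, -0.62 for CYTH4, -0.62 for PLSCR4 and -0.53 for CREG2.

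PTGES (chr9:132500615-132515344, hg19), the enzyme that completes prostaglandin E2 synthesis, was raised by vitamin D to 18.1 RPKM from 11.4 RPKM untreated. With both agents it was at 8.96 RPKM, close to the level with IL-13 alone, 9.08 RPKM (departure -0.68, z test on the authors' fold changes, adjusted p = 1.61e-11). DLX3, a homeobox factor of terminal epidermal differentiation, had its lowest level with both, 2.99 RPKM, against 5.12 RPKM untreated, 3.84 RPKM with IL-13 and 6.45 RPKM with vitamin D (departure -0.68). FOS, a subunit of the AP-1 factor, was at 1.24 RPKM untreated, 0.913 RPKM with IL-13, 13.8 RPKM with vitamin D and 7.04 RPKM with both (departure -0.55). LGALS9B, which has near-identical paralogs, was at 11.8 RPKM with vitamin D and 7.12 RPKM with both (departure -0.67). The calls of FOS and LGALS9B were lost with the larger errors, and that of FOS also through the 3 tables.

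A few genes were raised by IL-13 and rose less with vitamin D present, or were raised by both and rose less than the product. PLSCR4, a phospholipid scramblase, was at 0.154 RPKM untreated, 1.47 RPKM with IL-13, 0.127 RPKM with vitamin D and 0.565 RPKM with both, a departure of -1.08 that was not called with the larger errors or through the 3 tables. The sulfate transporter SLC26A2 was at 2.70, 17.4, 1.86 and 8.72 RPKM in the same order (departure -0.47), a call lost with the larger errors. ADAMTS15 (chr11:130318869-130346539, hg19), a metalloproteinase that cleaves aggrecan and versican, was raised from 2.13 RPKM to 9.75 RPKM by IL-13, to 10.2 RPKM by vitamin D and to 25.6 RPKM by both. The product would be 45.2 RPKM, which gives a departure of -0.82 (z test on the authors' fold changes, adjusted p = 1.02e-22), while the linear departure was 7.82 RPKM, above simple addition. With 1 RPKM added the departure was -0.53. KRT16P2 and KRT16P3, pseudogenes of the keratin gene KRT16, had departures of -1.11 and -1.15. KRT16P2 was at 11.8 RPKM untreated, 23.2 RPKM with IL-13, 30.1 RPKM with vitamin D and 27.4 RPKM with both. KRT16 itself, at 6675 to 8503 RPKM, had a departure of -0.13 that was not called (z test on the authors' fold changes, adjusted p = 0.403), and reads of the near-identical copies cannot be told apart with certainty.

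**Figure D3:**
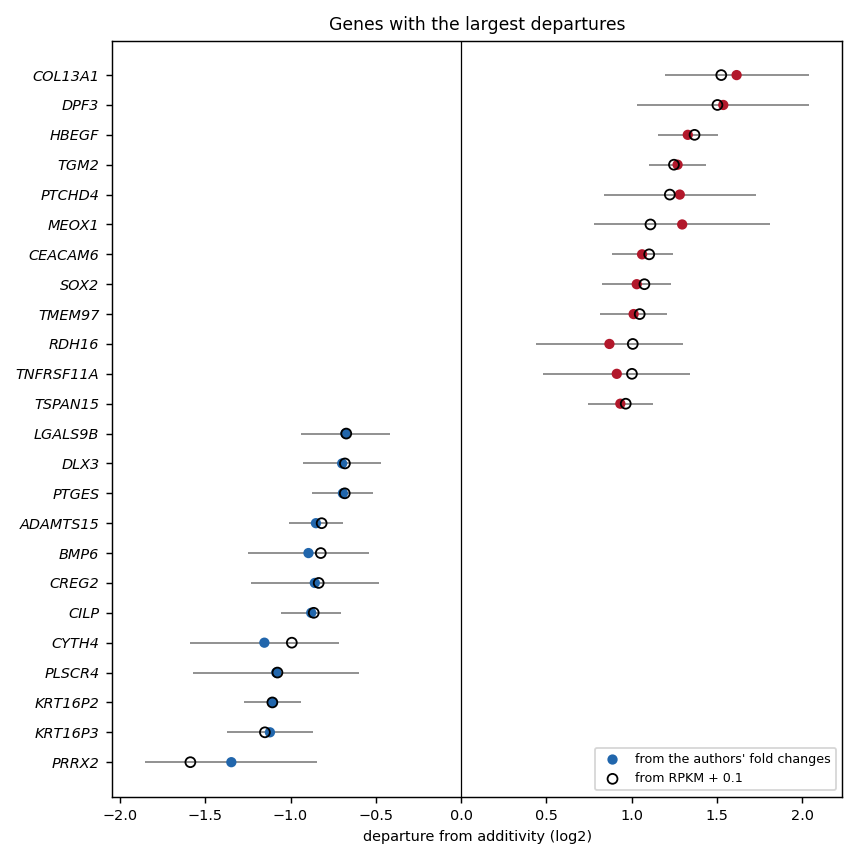
Departure from additivity on the log2 scale (x axis) of the 12 called genes with the most positive and the 12 with the most negative values; filled points come from the authors' fold changes, with lines for the 95% interval from the derived errors, and open circles from RPKM with 0.1 added. Filled and open points lie close together in most genes and furthest apart at PRRX2, where the RPKM value is -1.59.

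Several well-known targets of either agent had no called departure, unlike SERPINB3 and DSG1, described below. CAPN14 (chr2:31395922-31440411, hg19), the esophageal calpain, was at 10.2 RPKM untreated, 358 RPKM with IL-13, 14.8 RPKM with vitamin D and 463 RPKM with both, against a product of 520.3 RPKM. Its departure of -0.17 had a derived SE of 0.19 (z test on the authors' fold changes, adjusted p = 0.81). CYP24A1 went from 0.476 RPKM untreated and 0.281 RPKM with IL-13 to 560.5 RPKM with vitamin D and 463 RPKM with both (departure 0.32, z test on the authors' fold changes, adjusted p = 0.723). CD14, a co-receptor for bacterial lipopolysaccharide, was at 2.62, 3.67, 132.1 and 215.5 RPKM in the order untreated, IL-13, vitamin D and both (departure 0.23, z test on the authors' fold changes, adjusted p = 0.491). SERPINB1, an inhibitor of neutrophil proteases, was at 64.0, 34.3, 406.8 and 206.7 RPKM in that order, and the envelope protein gene IVL at 50.3, 12.7, 92.6 and 21.5 RPKM. Their departures were -0.08 and -0.12 and neither was called (z test on the authors' fold changes, adjusted p = 0.56 and 0.525). In these 2 genes the IL-13 fall and the vitamin D rise each kept about their size in the presence of the other agent.

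The signalling genes themselves showed no called departure. VDR was at 9.12 RPKM untreated, 11.2 RPKM with IL-13, 7.62 RPKM with vitamin D and 9.74 RPKM with both (departure 0.05). STAT6 was at 30.2, 27.2, 26.9 and 24.4 RPKM in the same order (departure 0.01), IL4R at 38.3, 33.1, 60.8 and 52.1 RPKM (departure -0.01) and IL13RA1 at 27.1, 24.9, 24.2 and 23.8 RPKM (departure 0.10). CISH and SOCS1, feedback inhibitors that STAT factors induce, were at 23.3 and 15.7 RPKM with IL-13 and at 27.8 and 18.4 RPKM with both, with departures of 0.14 and -0.04. Across the 25 genes of the receptor, JAK-STAT and SOCS list at 1 RPKM in any group, none was called by the z test in either direction or through the 3 tables, 1 had an unadjusted p below 0.05, and the median departure was 0.04. Over all tested genes the z test called 2.95%, and none of 25 genes is near that share. A call that misses the threshold does not show that the effects multiply exactly, and the median derived SE over the 11506 members tested was 0.0913.

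SERPINB3 and SERPINB4, neighbouring squamous cell carcinoma antigen genes with near-identical sequences, departed in opposite directions. SERPINB3 (chr18:61322431-61329197, hg19) was at 105.6 RPKM untreated, 381 RPKM with IL-13, 25.6 RPKM with vitamin D and 152 RPKM with both (departure 0.72, z test on the authors' fold changes, adjusted p = 1.59e-13). SERPINB4 was at 3.28, 100.1, 1.56 and 34.7 RPKM (departure -0.50, z test on the authors' fold changes, adjusted p = 0.0517) and was not called. On the linear scale the SERPINB3 departure was -149 RPKM, the opposite sign, and reads may be shared between the paralogs, which makes both values uncertain.

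For 8 genes the authors' deposited tables disagreed with each other by over 0.5 on the log2 scale, and these were left out of the test. They include TNFAIP6, whose product binds hyaluronan and modifies its protein coat. TNFAIP6 (chr2:152214106-152236562, hg19) was at 0.0561 RPKM untreated, 9.03 RPKM with IL-13, 0.0949 RPKM with vitamin D and 36.5 RPKM with both, a departure of 1.68 from RPKM. The authors' deposited tables gave it a fold change for both against vitamin D of 1.32 on the log2 scale and disagreed by 6.14, so its departure taken from them would be -3.74, and 2.40 through the 3 tables against untreated. KCNK3, a potassium channel, was at 0.0043, 0.0206, 0.103 and 1.43 RPKM in the same order (departure 2.71), with RNA near the floor in the 3 other groups. CCL26, the chemokine eotaxin-3, was at 0.0189 RPKM untreated, 7.85 RPKM with IL-13, 0.0173 RPKM with vitamin D and 9.73 RPKM with both (departure 0.33). From RPKM, SH2D1B had a departure of -0.88, HSD3B1 of 0.09, ADRA1B of -0.81 and BGLAP of -0.59. Through the 3 tables against untreated, the authors' deposited tables gave 0.14, 1.26, -0.10 and 0.18 for these genes, 1.35 for CCL26 and 3.80 for KCNK3, so the size of several, and for SH2D1B and BGLAP the sign, depends on the source. With 1 RPKM added to the levels the departure of KCNK3 was 1.12. The other 30 untested members are microRNA, small nucleolar and Cajal body RNA genes with a deposited adjusted p of 1. MIR711 was one of them, listed at 0 RPKM with IL-13 and with vitamin D and at 6.29 RPKM untreated and 6.998 RPKM with both. KCNK3 and MIR711, and the 4 genes from SH2D1B to BGLAP, were chosen after their values were seen.

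The departures were also read by how a gene responded to a single agent, a change of at least 1 on the log2 scale. Over all tested genes 1.75% were called higher and 1.2% lower. Of 106 genes raised by IL-13 (98 tested), 18 were called higher and 12 lower, with a median departure of 0.02. The genes called higher hold RPTN, a cornified envelope protein, at 5.77 RPKM untreated, 27.4 RPKM with IL-13, 12.9 RPKM with vitamin D and 84.0 RPKM with both. They also hold PAPSS2, which makes the sulfate donor of the cell, at 0.470, 1.83, 0.446 and 3.36 RPKM (departure 0.90). Those called lower hold CA2, a carbonic anhydrase, at 178 RPKM untreated, 596 RPKM with IL-13, 241 RPKM with vitamin D and 586 RPKM with both (departure -0.46), and LOX, which crosslinks collagen, at -0.32. Of 63 genes lowered by IL-13 (61 tested), 6 were called higher and 5 lower, with a median of 0.15. KRT10, a keratin of differentiated cells, was among the former at 102.9, 34.4, 41.4 and 21.3 RPKM (departure 0.63), and CALML5 and RHOF were among the latter at -0.36 and -0.65. With the larger errors the calls of CALML5 and RHOF were lost. PAPSS2 and CA2 were chosen after their values were seen.

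Of 138 genes raised by vitamin D (135 tested), 30 were called lower and 10 higher, against 1.2% and 1.75% of all tested genes. Their median departure was -0.12. Of 79 genes lowered by vitamin D (74 tested), 17 were called higher and none lower, with a median of 0.19. By the z test 4 of the genes with a negative departure had an unadjusted p below 0.05, and the route through the 3 tables called none of them. The 17 include AHR, the aryl hydrocarbon receptor, at 15.3 RPKM untreated, 28.6 RPKM with IL-13, 5.31 RPKM with vitamin D and 14.1 RPKM with both (departure 0.50), and its target CYP1B1 at 1.53, 4.95, 0.672 and 3.996 RPKM (departure 0.78). These 2 were chosen after their values were seen. Where the agents opposed each other by at least 0.5 each, 16 of 61 genes (60 tested) raised by IL-13 and lowered by vitamin D were called higher and 3 lower. Of 81 genes (80 tested) lowered by IL-13 and raised by vitamin D, 9 were called higher and 11 lower, and the medians were 0.07 and -0.08. The classes and the departure share the untreated, IL-13 and vitamin D values, and how much of these counts follows from that was not tested.

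Among gene groups, differentiation and matrix genes had calls in both directions. Of the 41 called genes named for a list, 11 stayed called with the larger errors (COL13A1, HBEGF, SOX2, SERPINB3, THBS1, DSG1, KRT10, CRNN, TNFSF10, SPINK5 and IGFBP3) and 29 through the 3 tables. Of all tested genes, 1.75% were called higher and 1.2% lower. In the list of epithelial differentiation and the cornified envelope, 6 of 57 genes were called higher and 6 lower, with a median of -0.04. DSG1, the desmosomal cadherin of upper cell layers, was at 16.4 RPKM untreated, 8.34 RPKM with IL-13, 3.68 RPKM with vitamin D and 2.98 RPKM with both. Both agents lowered DSG1, and together they lowered it less than the product of 1.83 RPKM (departure 0.68, z test on the authors' fold changes, adjusted p = 6.69e-12). CRNN, the cornified envelope gene cornulin, was at 50.8, 27.2, 88.0 and 71.8 RPKM (departure 0.60). CASP14, a caspase of terminal differentiation, was at 4.42, 3.43, 7.49 and 3.96 RPKM (departure -0.55), and CALML3 had a departure of -0.38. In the matrix and hyaluronan list, 4 of 34 genes (33 tested) were called higher and 3 lower, with a median of -0.002. Beside COL13A1 and THBS1, the metalloproteinase inhibitor TIMP3 was higher at 0.64, and its relative TIMP2 was lower at -0.21. KIAA1199, a hyaluronan-degrading protein, was lower at -0.32.

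All calls among cytokines and chemokines were higher than the product, 4 of 31 genes (30 tested), with a median of 0.09. Over all tested genes 1.75% were called higher and 1.2% lower. IL24 was at 1.86 RPKM untreated, 1.69 RPKM with IL-13, 1.13 RPKM with vitamin D and 1.75 RPKM with both (departure 0.72). TNFSF10, the death ligand TRAIL, was at 57.3, 69.5, 41.0 and 69.5 RPKM (departure 0.48), and IL36G at 15.3, 11.96, 8.61 and 9.05 RPKM (departure 0.42). In all 3 the level was lowest with vitamin D alone. The calls of IL24 and IL36G were lost with the larger errors and through the 3 tables. Among proteases and their inhibitors, 5 of 49 genes were called higher and 2 lower, with a median of -0.02. SPINK5, an inhibitor of kallikreins, was at 132.1 RPKM untreated, 104.8 RPKM with IL-13, 102.6 RPKM with vitamin D and 108.6 RPKM with both (departure 0.42). Its known target KLK5 was at 140.9, 110.1, 216.7 and 136.4 RPKM (departure -0.31). KLK7, another kallikrein, named after its values were seen, was called higher at 0.24. SERPINB13 was higher at 0.34 on the log2 scale but at -34.8 RPKM on the linear scale, and SERPINB6 was lower at -0.21.

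All calls among immediate early genes and MAP kinase phosphatases were lower, 4 of 34, with a median of -0.02: FOS, GADD45B, JUNB and JUN. The share called lower over all tested genes was 1.2%, and that called higher 1.75%. JUNB was at 113.8 RPKM untreated, 107.2 RPKM with IL-13, 191.4 RPKM with vitamin D and 151.9 RPKM with both (departure -0.25), and GADD45B at 32.0, 25.02, 27.6 and 17.4 RPKM (departure -0.30). JUN had a departure of -0.24. Among the interferon response genes, 2 of 42 were called, both lower, beside 1.2% called lower of all tested genes. MX1 was at 50.6, 49.3, 51.2 and 43.4 RPKM (departure -0.20) and OAS3, a sensor of double-stranded RNA, at 30.3, 29.1, 28.5 and 23.9 RPKM (departure -0.19). The median departure of the 42 genes was -0.13, and 31 of them were below 0, against 42.9% of all members. Both MX1 and OAS3 had their lowest value with both agents, and these shifts are small beside those of the genes above.

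Among the 17 genes (13 tested) of the IL-13 response list at 1 RPKM in any group, 3 were called higher (SERPINB3, RPTN and the protease CTSC). VWF and PKP2 of this list were called lower, and its median was -0.04. This list and that of vitamin D receptor targets hold genes known to move with these agents. Of 26 vitamin D receptor targets (25 tested), HBEGF and TXNRD1 were called higher and FOS, SEMA3B and IGFBP3 lower, with a median of -0.07. The counts of these lists stand beside 1.75% called higher and 1.2% called lower of all tested genes. IGFBP3, which binds insulin-like growth factors, was at 107.8 RPKM untreated, 95.3 RPKM with IL-13, 194.5 RPKM with vitamin D and 140.2 RPKM with both (departure -0.29, z test on the authors' fold changes, adjusted p = 5.77e-08). TXNRD1, thioredoxin reductase, was at 36.6, 36.7, 91.9 and 108.6 RPKM (departure 0.24). In vitamin D and retinoid metabolism, RDH16 and the coactivator NCOA1 (0.31) were higher and the retinal reductase DHRS3 (-0.51) was lower, 3 of 27 genes with a median of 0.09. Of 21 basal epithelial genes, SOX2, DST (0.33) and CAV1 (0.29) were higher and PDPN (-0.31) was lower, with a median of 0.04.

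The remaining lists had few calls or none. In cholesterol synthesis 1 of 25 genes was called, in the higher direction, and the median was 0.05. None of 24 NF-kappaB response genes (median 0.04) and none of 19 cell cycle genes (median 0.10) was called by the z test or through the 3 tables, and 2 genes in each list had an unadjusted p below 0.05. None of 4 fibroblast and 2 leukocyte markers was called in either way or had an unadjusted p below 0.05, and their medians were 0.07 and 0.11. The 1 endothelial marker at 1 RPKM, VWF, was lower (departure -0.38) at 0.514, 1.92, 1.18 and 3.15 RPKM, and on the linear scale it was higher by 0.557 RPKM. No set test was made, and the counts stand beside 1.75% and 1.2% of all genes tested.

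**Figure D4:**
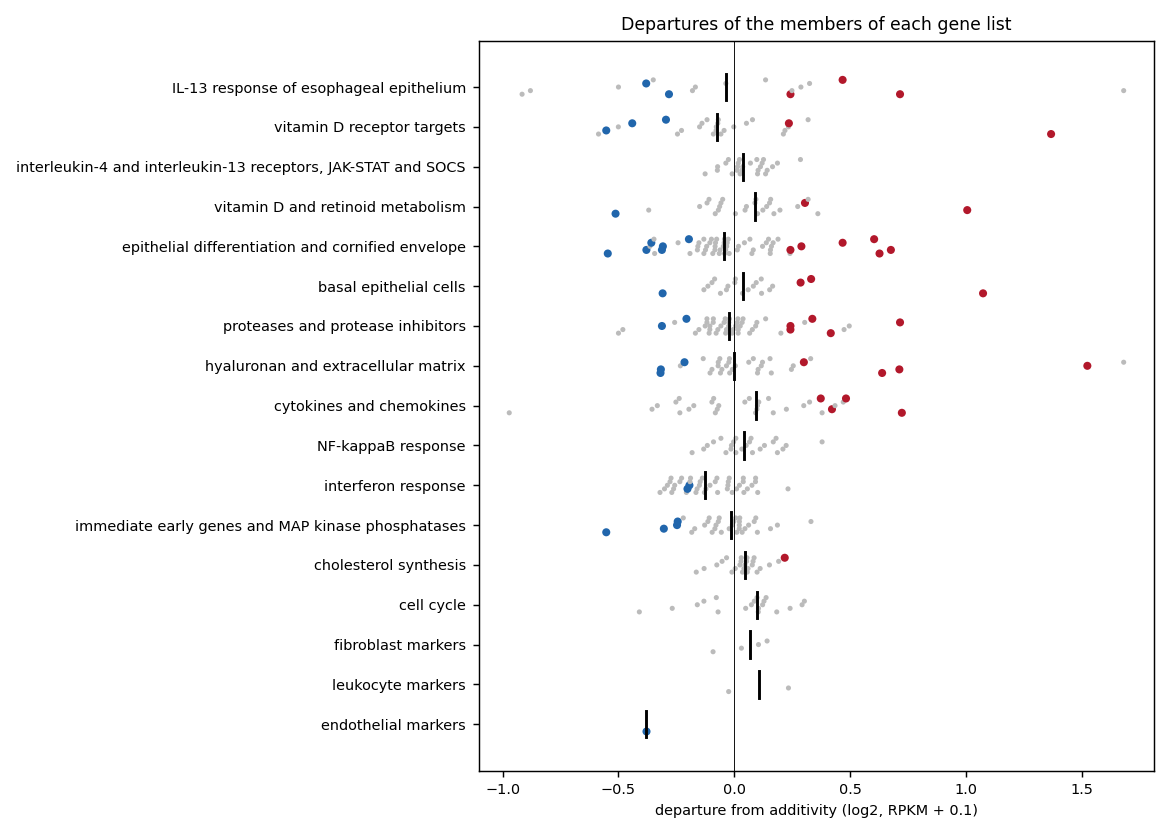
Departure on the log2 scale (x axis) of each gene at 1 RPKM or more in any group, by gene list (y axis); red and blue points are called higher and lower, grey points are not called or not tested, and black bars are medians. Medians lie within 0.13 of 0 for all lists but the single endothelial marker, and the calls of cytokines and chemokines are all red while those of immediate early genes and of the interferon response are all blue.

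Binding of the 2 factors was profiled by ChIP-seq in the same cells, with 1 library of STAT6 in IL-13-treated cells and 1 of VDR in vitamin D-treated cells, and was not used to choose the genes. No library of either factor with both agents was analysed here. Peaks were called by the authors per library, 6597 summits for STAT6 and 11515 for VDR. A STAT6 summit lay within 25 kb of the start of 42 genes called higher, 20.9% (exact 95% binomial interval 15.5% to 27.2%), of 24 of 138 called lower, 17.4% (11.5% to 24.8%), and of 8.93% of all tested genes. A VDR summit lay this near to 35.8% of the genes called higher (29.2% to 42.9%), 52.9% of those called lower (44.2% to 61.4%) and 29.4% of all. Summits of both factors were found at 10.9%, 10.1% and 4.08%. At this window VDR summits were most frequent near the genes called lower, and STAT6 summits were more frequent in both directions than over all genes. The size of these differences depended on the window and on peak height. The VDR share of genes called lower was 29.7% within 10 kb, against 18.0% of all, and 22.5% for summits with a fold enrichment of at least 10, against 9.08%. For such summits the STAT6 share of genes called higher was 4.48% against 1.01%, while their VDR share, 9.45%, was near the 9.08% of all. Within 10 kb the STAT6 share of genes called lower was 6.52% against 4.61% of all, and within 100 kb that of genes called higher was 51.2% against 25.2%. These intervals cover counting error only and treat genes as independent. Neighbouring genes can share a summit, and genes that respond to an agent are more often called; the part of both in these shares was not tested.

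**Figure D5:**
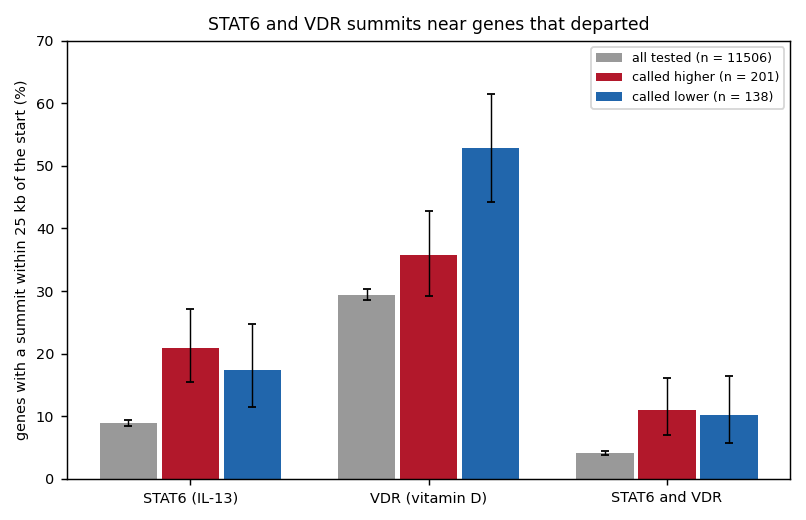
Share of genes (y axis, percent) with a STAT6 summit, a VDR summit or both within 25 kb of the start, for all 11506 tested genes (grey), those called higher (red) and the 138 called lower (blue); bars start at 0 and lines are exact 95% binomial intervals. The VDR share is 52.9% in blue and 29.4% in grey, and the STAT6 share is 20.9% in red and 8.93% in grey.

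Near single genes the nearest summits differed in distance. CILP had a VDR summit 1.94 kb before its start with a fold enrichment of 7.91, PTGES had one at 20.7 kb (fold enrichment 10.5) and BMP6 at 28.6 kb (19.4), and SEMA3B had VDR and STAT6 summits within its first 2 kb. Before HBEGF a VDR summit lay at 1.67 kb (fold enrichment 6.08) and the nearest STAT6 summit at 52.2 kb. COL13A1 had a VDR summit at 4.03 kb (fold enrichment 4.38) and a STAT6 summit at 73.4 kb (4.70) before its start. TGM2 had a STAT6 summit at 2.39 kb (fold enrichment 3.95) and no VDR summit nearer than 110.9 kb, although vitamin D lowered its RNA. Genes without a called departure also had near summits. A STAT6 summit lay 0.081 kb from the start of CAPN14 (fold enrichment 4.20) and 0.652 kb from that of SOCS1 (15.3). A VDR summit lay at 0.245 kb for CYP24A1 (23.9), 0.405 kb for CD14 (26.1) and 0.114 kb for SERPINB1 (4.48). At VDR itself, also not called, the nearest VDR summit lay at 41.9 kb. Fold enrichments are the authors' values per peak.

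The STAT6-type motif TTCNNNNGAA was present in 11 of 150 promoters of genes called higher, 7.33%, 2 of 101 of genes called lower, 1.98%, and 4.48% of the 8355 promoters of tested genes. Over all 27305 RefSeq promoters of 300 bases the share was 6.37%. With a gap of 3 bases, TTCNNNGAA, the shares were 8.67%, 3.96%, 6.01% and 7.88%. The VDR direct repeat was in 1 of 150, that of CEACAM6 shown above, in none of 101, and in 0.18% of tested promoters. Both strands were searched, and TTCNNNNGAA and TTCNNNGAA read the same on each. These counts are small, no test was made, and a motif absent from this window says nothing about binding elsewhere.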

How the data were processed

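RNA and ChIP-seq files of EPC2 cells were used as deposited. The submitters' processing notes name the tools STAR, Bowtie, Trim Galore, MACS2 and SAMtools and the builds hg19 and GRCh37, without roles or versions. The authors deposited RPKM as 1 value per group, log2 fold changes and p-values in 4 tables, per the file headers, and no source used here says which test gave the p-values. The table named for IL-13 against both agents was used as vitamin D against both. Its first RPKM column is that of vitamin D, per the file headers, and its log2 fold changes correlated across genes at 0.963 with both against vitamin D and at -0.0055 with both against IL-13. Fold enrichment, a ratio over background, was deposited by the authors for each peak.

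Departures came from RPKM with 0.1 added, joined by RefSeq identifier. For the z test, the standard error of each deposited log2 fold change was its size divided by the z of its p-value. It was the median of the 201 genes nearest in RPKM where p was over 0.9 (1457 genes), and an upper bound where p was listed as 0 (13 genes). The departure took the 2 tables that share no sample, both against vitamin D and IL-13 against untreated, and summed their variances. An adjusted p listed as 1 was read as a gene left untested, and 23 genes whose tables disagreed by over 0.5 were left out. The interquartile range of the z values was 1.23 times that of a standard normal. The test was run on simulated data with the derived errors taken as true, which does not check those errors. Across genes, departures from RPKM and from the deposited fold changes correlated at 0.968. P-values measure only the spread behind the deposited ones, which may be technical.

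The members and the 17 gene lists were chosen with earlier results of these data known. Genes were named by rule: the 12 largest called departures in each direction whose 2 estimates had the same sign and lay within 1, up to 3 called genes per direction in each list and response class, and a fixed set of known targets; other names are marked in the text. The values of 2 genes are not reported here. Promoters are RefSeq's (GRCh38.p14), from 250 bases before to 50 after the start. Sums of RPKM do not give depth, so the precision of single samples is unknown. Alternatives tried were the pseudocount, scaling, centring, scale, filter, threshold, error size, route through 3 tables, peak window and peak height. Python 3.11.15, numpy 2.4.6, pandas 2.3.3, scipy 1.17.1 and matplotlib 3.10.9 were used.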

Additional observations from a re-analysis of the deposited data

How the results depend on the processing

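No paired analysis was possible because the RNA tables hold 1 value per group, and for the same reason no sample could be left out in turn. The counts of called genes (339, of which 138 lower) were 223 in all and 87 lower at an adjusted p below 0.01. They were 54, 38 and 16 with derived errors 1.5 times larger, all 54 among the 339, and 187, 106 and 81 through the 3 tables against untreated, 186 of them shared in the same direction. The other 8 alternatives for these counts stayed within 1.5 times. 2 of these, leaving out genes of at most 300 bases and asking for an RPKM departure of at least 0.5 times the deposited one, were added after seeing the data.

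On the linear scale the sign reversed for SOX2 (-0.188 RPKM), SLC6A14 (-0.845), SERPINB3 (-149), SERPINB13 (-34.8), VWF (0.557) and ADAMTS15 (7.82), because adding RPKM differs from multiplying folds. With no gene left out for disagreeing tables, TNFAIP6 was called at -3.74, against 1.68 from RPKM. The median departure of genes lowered by IL-13 was 0.053 with a single effect of at least 0.5. That of genes raised by IL-13 and lowered by vitamin D was 0.18 with 1 RPKM added. That of the IL-13 response list was 0.19 over genes at 1 RPKM in all 4 groups and -0.14 from the deposited fold changes. The excess over all tested genes of STAT6 summits near genes called higher, 11.97 percentage points, was 26.1 within 100 kb and 3.47 for summits with a fold enrichment of at least 10. That near genes called lower, 8.47, was 1.92 within 10 kb. The excess of VDR summits near genes called lower, 23.5, was 11.7 within 10 kb and 13.4 for the stronger summits. The cause was not tested. Low genes depend on the pseudocount, and depth per sample is unknown.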
